A study of Homo sapiens with 12 samples.

Results

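The 6 genes described here encode the intermediate filament proteins of nerve cells: NEFL, NEFM and NEFH (the light, medium and heavy neurofilament chains), INA (alpha-internexin), PRPH (peripherin) and NES (nestin). They were chosen by name and are 6 of the 55765 gene symbols counted in every library. All 6 passed the filter on low counts in every comparison.

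Intermediate filaments are rope-like polymers that give a cell mechanical strength. In axons, the 3 neurofilament chains assemble together with alpha-internexin or, mainly in peripheral neurons, with peripherin, and the filaments set the calibre of the axon. NEFL forms the core of the filament, while NEFM and NEFH carry long tails that are heavily phosphorylated and reach sideways from it. Nestin belongs to dividing neural precursors, where it assembles with vimentin, and it is usually replaced by the neuronal filaments as the cells mature.

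The cells were SH-SY5Y, a cloned human neuroblastoma line derived from the bone marrow line SK-N-SH, and they were differentiated for 7 days with all-trans retinoic acid (ATRA), an agent that makes these cells extend neurites. In the co-treatment experiment, 3 cultures received H2O2, a source of oxidative stress, together with ATRA throughout the 7 days, and 3 control cultures received ATRA alone. In the pre-treatment experiment, 3 cultures received H2O2 for 72 h before ATRA was begun, and 3 control cultures were not exposed. The dose of H2O2 is 10 mM in the design text deposited with the data and 10 μM in the methods. All 12 cultures had therefore been given ATRA, and no undifferentiated culture was analysed here. All cultures came from 1 line, and nothing states how far the replicates of a group were grown apart, so the p-values measure only the spread between these libraries, which may be technical.

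Libraries of ribosome-depleted total RNA held 27576276 to 98287391 reads counted on genes, and the 6 genes together took 0.0718% to 0.124% of them. The pre-treatment control replicate 3 stood apart from the other pre-treatment controls. Its chi-square per degree of freedom over all genes was 545 and 499 against control replicates 1 and 2. Those replicates differed from each other by 40.1. Control replicate 3 had 0.200 reads assigned to no gene per read counted on a gene, against 0.800 and 0.830 in them. This ratio was 0.343, 0.400 and 0.462 in the pre-treated libraries and 0.263 to 0.429 in the co-treatment libraries. By this measure, control replicates 1 and 2 were the ones far above all other libraries. Counting was on exons, so reads assigned to no gene may include reads from introns. Of the counted reads, small structured RNAs took 17.6% in control replicate 3, 1.59% and 2.88% in the other pre-treatment controls and 13.3% to 15.1% in the pre-treated libraries. The co-treatment libraries had 5.04% to 13.0%. The study's clustering of the pre-treatment libraries leaves control replicate 3 out, so pre-treatment tests are given over all 6 libraries and over the 5 without it. For both kinds of reads, control replicates 1 and 2 lay outside the range of the pre-treated libraries. The part of this in the comparisons over 5 libraries was not tested. The cells carried neuronal markers, with 486 to 985 CPM (reads of a gene scaled to a common library total, with TMM factors over the 12 libraries) for TUBB3, while the neural stem cell marker SOX2 did not exceed 0.245 CPM and SOX1 had no read in any library. The 6 immune markers summed to at most 1.66 CPM in any library.

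Of the 6 genes, the promoter set used held INA, NES and PRPH but not NEFL, NEFM or NEFH. The 250 bases before the start site are shown for INA, NES and PRPH. They come from RefSeq (GRCh38.p14, a later build than that of the counts) and lie at chr10:103276888-103277137 (INA, plus strand), chr1:156677408-156677657 (NES, minus strand) and chr12:49294897-49295146 (PRPH, plus strand). They were searched on both strands for the TATA box TATAAA, the GC box GGGCGG, the E box CANNTG and the sequence TGACG, and capitals mark TATAAA and GGGCGG, the latter as CCGCCC where it is on the other strand.
INA: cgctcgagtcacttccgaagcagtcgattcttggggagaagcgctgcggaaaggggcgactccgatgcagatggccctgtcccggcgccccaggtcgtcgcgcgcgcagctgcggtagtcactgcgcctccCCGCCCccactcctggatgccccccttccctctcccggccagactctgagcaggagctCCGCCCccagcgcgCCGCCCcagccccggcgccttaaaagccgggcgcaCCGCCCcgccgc
NES: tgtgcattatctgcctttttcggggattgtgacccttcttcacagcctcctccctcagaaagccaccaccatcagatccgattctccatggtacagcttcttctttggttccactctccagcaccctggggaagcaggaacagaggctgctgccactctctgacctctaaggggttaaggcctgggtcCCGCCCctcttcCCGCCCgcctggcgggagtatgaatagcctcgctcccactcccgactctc
PRPH: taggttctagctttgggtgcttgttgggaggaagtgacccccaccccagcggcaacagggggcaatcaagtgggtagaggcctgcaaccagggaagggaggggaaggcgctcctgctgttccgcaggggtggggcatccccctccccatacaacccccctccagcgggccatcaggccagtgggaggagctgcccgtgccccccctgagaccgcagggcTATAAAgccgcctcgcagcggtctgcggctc
The INA window held 4 GC boxes and the NES window 2, and the PRPH window held 1 TATA box and no GC box. Of 35116 promoter windows of the same length, 42.6% hold at least 1 GC box and 10.7% a TATA box. The share that holds several GC boxes was not counted. These matches describe letters and not bound sites. E boxes numbered 2 in INA, 1 in PRPH and 0 in NES (61.8% of windows hold one), and TGACG was in none of the 3 (21.2% of windows).

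On the GRCh37 genome, NEFM (chromosome 8, 24771271 to 24776611, plus strand) and NEFL (chromosome 8, 24808468 to 24814235, minus strand) are neighbours, with 31856 bases between them. NEFH lies on chromosome 22 (29876207 to 29887379, plus strand), INA on chromosome 10 (105036895 to 105050103, plus strand), PRPH on chromosome 12 (49688930 to 49692469, plus strand) and NES on chromosome 1 (156638555 to 156647199, minus strand). Counts refer to the exons of each gene. The span of INA shares 468 bases with that of NT5C2, a nucleotidase gene on the opposite strand that was counted too. The strand setting of the counting is not given in the sources used here, so how reads from that stretch were assigned is not known.

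The order of the 6 genes by level was almost the same in every library. Levels can be compared between genes only per length, so CPM was divided by the kilobases of merged exons. NEFL was the most abundant in 12 of 12 libraries, with a median of 111 CPM per kb (73.3 to 127). NES came second in 12 of 12 libraries, with a median of 59.7 CPM per kb (40.7 to 80.2). INA (median 31.7 CPM per kb, 21.7 to 45.3) and NEFM (median 20.7 CPM per kb, 13.6 to 50.9) came next, and their ranges overlapped widely. INA was above NEFM in 11 of 12 libraries, the exception being co-treatment control replicate 3, where NEFM had 50.9 and INA 21.7 CPM per kb. NEFH was the fifth in every library, with a median of 10.2 CPM per kb (7.61 to 15.7). PRPH was far below the others, at 0.0859 to 0.427 CPM per kb, which came from only 14 to 108 reads per library. With coding length in place of merged exons, INA was above NES in 8 of 12 libraries, so those neighbours cannot be ordered, while NEFL, NEFH and PRPH kept their places in every library.

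**Figure D1:**
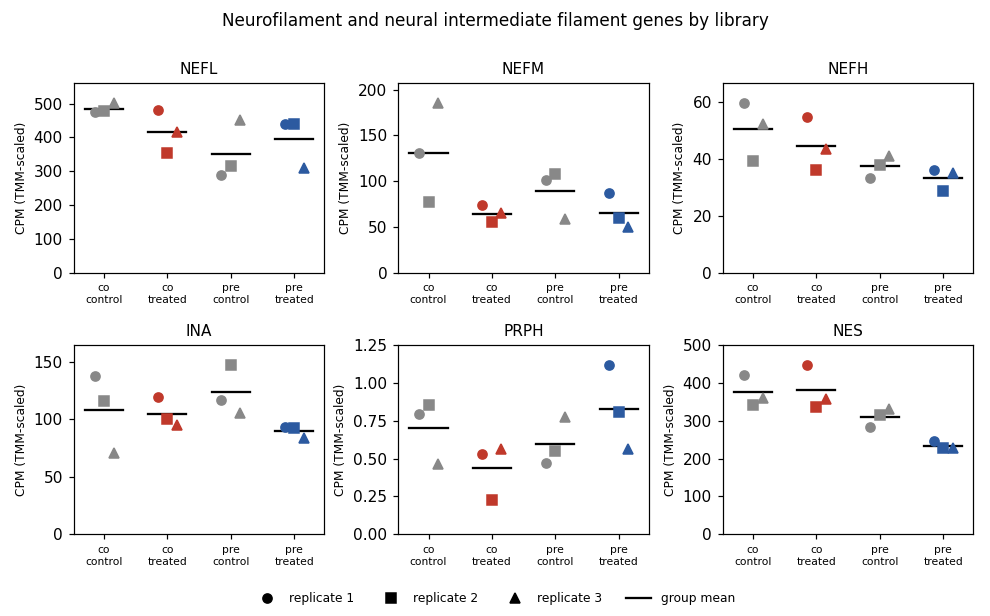
Each panel plots the CPM (TMM-scaled over 12 libraries) of 1 gene in the 4 groups, with a symbol for each replicate and a bar at the group mean. NEFM had 77.1 to 185 CPM in the co-treatment controls and 55.2 to 73.5 CPM with H2O2, while the INA and NES points of the pre-treated cultures lie below all pre-treatment controls.

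In the co-treatment experiment, none of the 6 genes passed the test, in which a gene was called at a Benjamini-Hochberg adjusted p (FDR) below 0.05 in edgeR's quasi-likelihood test over 22089 genes. Over all these genes, 0.598% were called, 74 higher (0.335%) and 58 lower (0.263%), and with library size as the only scaling the split was 57 higher and 23 lower. The lowest FDR of the 6 belonged to NEFM, whose level in treated cells was about that of the lowest control or below it. NEFM had 131, 77.1 and 185 CPM in control replicates 1 to 3 and 73.5, 55.2 and 64.6 CPM in treated replicates 1 to 3. The groups did not overlap, although control replicate 2 lay only just above treated replicate 1, and 7.37% of all genes tested were likewise lower in every treated library. Its log2FC (treated against control) was -1.02 (standard error 0.25, unadjusted p = 0.00137, FDR 0.122). This estimate turned on single controls, with -1.30 (FDR 0.0135) without control replicate 2 and -0.69 (FDR 0.250) without control replicate 3. NEFM was also called by edgeR's exact test, the test named in the study's methods (FDR 0.00862), and by DESeq2 (FDR 0.00189), but not by limma-voom (FDR 0.177). Of all genes, these 3 tests called 1.53%, 1.56% and 0.625%.

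The other chains showed no such separation. NEFL, the core chain, had 475, 479 and 500 CPM in the controls and 482, 355 and 415 CPM in the treated cultures. The controls were close together, and treated replicate 1 lay among them. The log2FC of NEFL was -0.21 (standard error 0.14, FDR 0.783). NEFH, the heavy chain, had 59.7, 39.2 and 52.5 CPM in the controls and 54.8, 36.0 and 43.6 CPM with H2O2, so the groups overlapped almost fully (log2FC -0.17, standard error 0.18, FDR 0.890).

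INA and NES had log2FC values near 0 when H2O2 was present during differentiation. INA had 137, 116 and 70.7 CPM in the controls and 119, 100.1 and 95.2 CPM in the treated cultures, all of which lay within the range of the controls (log2FC -0.04, standard error 0.20, FDR 0.988). NES had 422, 342 and 360 CPM in the controls and 447, 336 and 357 CPM in the treated cultures (log2FC 0.02, standard error 0.14, FDR 0.991). The sign of neither value was stable when single libraries were left out, from -0.27 to 0.17 for INA and down to -0.11 for NES. PRPH, read 39, 40 and 16 times in the controls and 15, 14 and 29 times in the treated libraries, had 0.705 ± 0.208 CPM (SD, n = 3) and 0.440 ± 0.187 CPM (SD, n = 3), a log2FC of -0.71 with a standard error of 0.48 (FDR 0.797). The medium chain was thus the 1 gene of the 6 with an unadjusted p under 0.05, against 1800 of 22089 genes in all.

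**Figure D2:**
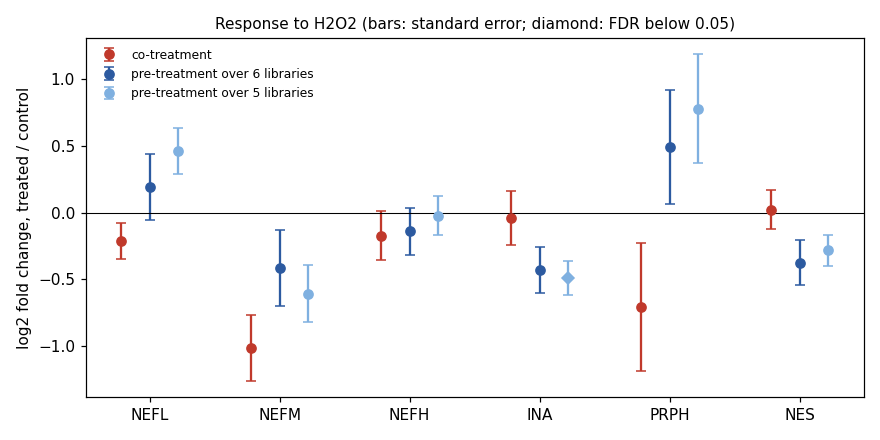
Points give the log2FC of treated against control cells for each gene in the co-treatment comparison and in the pre-treatment comparison over 6 and over 5 libraries, with bars of 1 standard error and a diamond for an FDR below 0.05. NEFM lies below 0 in all 3 comparisons (-1.02, -0.42 and -0.61), PRPH and NEFL lie on opposite sides of 0 in the 2 experiments, and INA over 5 libraries carries the only diamond.

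After pre-treatment, the genes with all treated libraries below the controls were INA and NES, and neither was called over the 6 libraries, where 0.0242% of 24743 genes were, all higher. INA alone of the 6 had an unadjusted p under 0.05 over these libraries (0.0349), against 2776 of all genes, and edgeR's exact test, DESeq2 and limma-voom called none of the 6 either. INA had 117, 147 and 106 CPM in control replicates 1 to 3 and 93.0, 92.6 and 83.5 CPM in treated replicates 1 to 3. The 3 treated libraries were close together and below the lowest control. The log2FC of INA was -0.43 (standard error 0.17, FDR 0.403) over 6 libraries and -0.49 (standard error 0.13, FDR 0.0258) over the 5 without control replicate 3, so that INA fell in that comparison. NES had 283, 316 and 330 CPM in the controls and 247, 229 and 227 CPM in the treated cultures, again without overlap. Its log2FC was -0.38 (standard error 0.17, FDR 0.451) over 6 libraries and -0.28 (standard error 0.11, FDR 0.0988) over 5. Over 6 libraries, 8.47% of all genes tested were lower in every treated library.

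The call of INA has to be read against its background. Without control replicate 3, 26.1% of 26350 genes were called, 3490 higher and 3382 lower, and the split was 2186 higher and 4088 lower with upper-quartile factors and 1384 and 4890 with library size as the only scaling. INA was the 1 gene of the 6 called, and 12.8% of all genes were called lower. INA remained called with the small structured RNA loci removed from the table (log2FC -0.51, FDR 0.0204). It was not called without control replicate 2 (log2FC -0.31, FDR 0.211), without treated replicate 1 (FDR 0.0671), without treated replicate 2 (FDR 0.0723), or with 1 fit over both experiments (FDR 0.0707). Its log2FC stayed between -0.71 and -0.31 under every alternative tried.

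The neurofilament chains differed in direction after pre-treatment, and none of them was called. NEFM had 101, 108 and 58.6 CPM in the controls and 87.2, 59.4 and 49.3 CPM in the treated cultures. Control replicates 1 and 2 lay above all treated cultures, and control replicate 3 lay between treated replicates 2 and 3. The log2FC of NEFM was -0.42 (standard error 0.28, FDR 0.611) over 6 libraries and -0.61 (standard error 0.22, FDR 0.0678) over 5. Over these 5, the exact test (FDR 0.0360) and DESeq2 (FDR 0.0407) called NEFM, along with 30.3% and 30.0% of all genes. NEFL had the opposite sign, with 289, 316 and 452 CPM in the controls and 440, 438 and 309 CPM in the treated cultures. Its groups overlapped, since control replicate 3 was the highest of the 6 libraries and treated replicate 3 lay among the lowest. The log2FC of NEFL was 0.19 (standard error 0.25, FDR 0.789) over 6 libraries and 0.46 (standard error 0.17, FDR 0.0782) over 5.

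NEFH had 33.2, 38.1 and 41.2 CPM in the pre-treatment controls and 36.1, 28.9 and 35.1 CPM in the treated cultures, and overlapping groups. Its log2FC was -0.14 (standard error 0.18, FDR 0.778) over 6 libraries and -0.02 (standard error 0.15, FDR 0.923) over 5. PRPH was read 26, 25 and 51 times in the controls and 108, 55 and 45 times in the treated libraries, in which 0.830 ± 0.278 CPM (SD, n = 3) stood against 0.599 ± 0.159 CPM (SD, n = 3). Its log2FC was 0.49 (standard error 0.43, FDR 0.685) over 6 libraries and 0.78 (standard error 0.41, FDR 0.187) over 5. Over 5 libraries, NEFM, INA and NES were lower and PRPH higher without overlap, 4 of the 6 genes, where 57.2% of all genes tested had groups that did not overlap, 25.7% higher and 31.5% lower in treated cells.

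**Figure D3:**
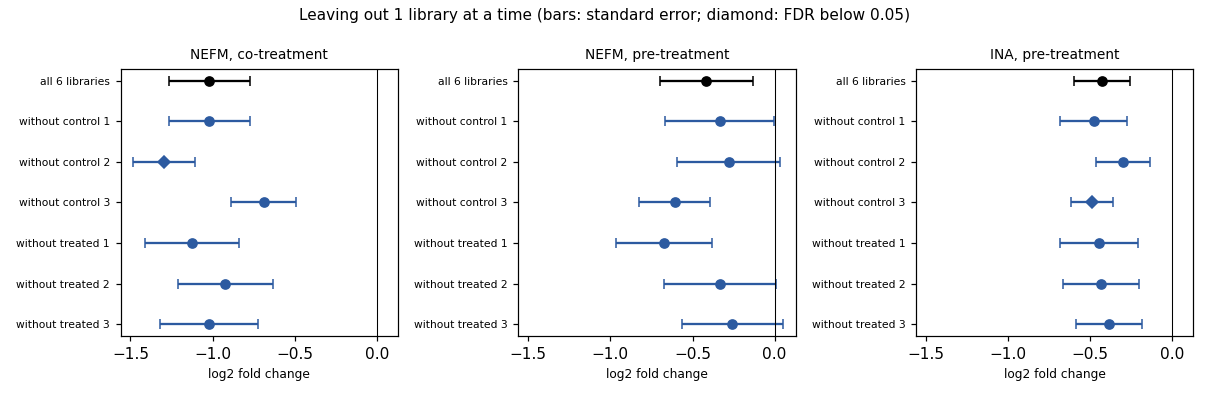
Each panel shows the log2FC of 1 gene with all 6 libraries of the experiment and with each library left out in turn, with bars of 1 standard error and a diamond for an FDR below 0.05. NEFM after co-treatment runs from -1.30 to -0.69 and is called only without control replicate 2, and INA after pre-treatment is called only without control replicate 3.

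To ask whether the timing of H2O2 mattered, the responses of the 2 experiments were compared in 1 fit over 12 libraries, in which 0.0287% of 24407 genes differed. None of the 6 genes did, by edgeR, DESeq2 or limma-voom, or at an unadjusted p under 0.05 in edgeR (2183 of all genes). The difference in log2FC (pre-treatment minus co-treatment) was largest for PRPH, at 1.18 (standard error 0.63, FDR 0.590), and the value for NES was -0.42 (standard error 0.21, FDR 0.565), the lowest FDR of the 6. For NEFL it was 0.39 (standard error 0.28, FDR 0.675), for NEFM 0.57 (standard error 0.43, FDR 0.694), and for INA -0.42 (standard error 0.30, FDR 0.672). NEFH had a difference of 0.01 (standard error 0.26, FDR 0.998), a value whose sign changed with the scaling. Without pre-treatment control replicate 3, where 8.02% of genes differed, none of the 6 was called, and NEFL came nearest with 0.62 (standard error 0.22, FDR 0.0935).

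Averaged over both exposure times in an additive fit of experiment and treatment, 0.154% of 22148 genes were called, and the 6 genes were not among them, nor among the calls of DESeq2 or limma-voom. NEFM again had the lowest FDR of the 6, with a log2FC of -0.74 (standard error 0.23, unadjusted p = 0.00584, FDR 0.224), and without pre-treatment control replicate 3 it had -0.88 (standard error 0.20, FDR 0.0646), against 0.86% of genes called. The value for NEFM was negative under every alternative tried, from -0.89 to -0.56. The other 5 genes had common log2FC values between -0.26 (INA, FDR 0.516) and -0.03 (NEFL, FDR 0.957).

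Levels were also compared between the control cultures of the 2 experiments, both given ATRA alone. NEFL had 485 ± 13.7 CPM (SD, n = 3) in the co-treatment controls and 352 ± 87.5 CPM (SD, n = 3) in the pre-treatment controls, without overlap. The log2FC of NEFL (pre-treatment minus co-treatment controls) was -0.46 (standard error 0.20, FDR 0.363), where 0.0041% of all genes were called, and -0.70 (standard error 0.17, FDR 0.0112) without pre-treatment control replicate 3, where 25.1% were. NES had 375 ± 41.6 CPM (SD, n = 3) and 310 ± 23.9 CPM (SD, n = 3), also without overlap (log2FC -0.28, standard error 0.15, FDR 0.425), as for 5.76% of all genes that were lower in every pre-treatment control. NEFH had 50.5 ± 10.4 CPM (SD, n = 3) and 37.5 ± 4.03 CPM (SD, n = 3), with a log2FC of -0.43 (standard error 0.19, FDR 0.370). Without pre-treatment control replicate 3, the log2FC was -0.34 for NES (FDR 0.102) and -0.52 for NEFH (FDR 0.0674). Whatever differed between the 2 experiments in culture or handling cannot be told apart here.

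Because library scaling cancels in a ratio of 2 genes of the same library, the balance of subunits was described by such ratios, with CPM per kb of merged exons and no test. The ratio of NEFM to NEFL was 0.298, 0.175 and 0.400 in the co-treatment controls and 0.165, 0.169 and 0.169 with H2O2. The treated cultures were nearly identical and all lay below the controls, of which replicate 2 was close to them. In the pre-treatment experiment, the ratio was 0.380, 0.372 and 0.141 in the controls and 0.215, 0.147 and 0.173 in the treated cultures. Control replicate 3 had the lowest ratio of all 12 libraries, so the groups overlapped with it and not without it. The mean log2 ratio of treated cells lay below that of controls by 0.71 after co-treatment, and by 0.62 over 6 and 1.10 over 5 pre-treatment libraries.

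The other ratios had no common direction. NEFH per NEFL was 0.0850 to 0.130 in the co-treatment controls and 0.105 to 0.118 with H2O2, with overlap. In the pre-treatment experiment, it was 0.119 in control replicate 1, a little more in control replicate 2, and 0.0947 in control replicate 3. The treated cultures had 0.0684 to 0.118, which overlapped the controls through control replicate 3. INA per NEFL was 0.171 to 0.351 in the co-treatment controls and 0.278 to 0.342 with H2O2. In the pre-treatment experiment, control replicates 1 to 3 had ratios of 0.492, 0.566 and 0.284, and the treated cultures had 0.256, 0.256 and 0.327, so control replicate 3 again lay with the treated cultures. NEFL per NES, the mature against the precursor filament, was 1.59 to 1.98 in the co-treatment controls and 1.49 to 1.64 with H2O2. After pre-treatment it was 1.93 to 2.71, against 1.41, 1.44 and 1.94 in the controls, the last being control replicate 3.

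**Figure D4:**
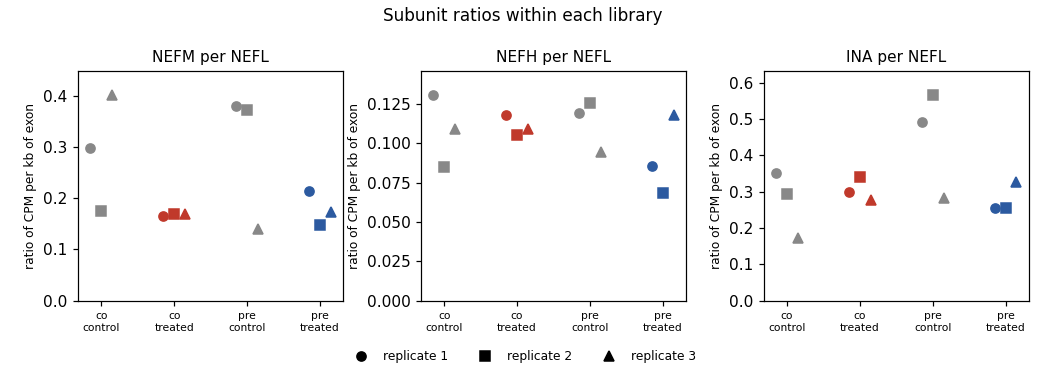
The ratios of NEFM, NEFH and INA to NEFL (CPM per kb of merged exons) are plotted for each library in the 4 groups, with a symbol for each replicate. The NEFM to NEFL ratio of the co-treated cultures sits at 0.165 to 0.169, below controls at 0.175 to 0.400, and pre-treatment control replicate 3 (0.141) lies apart from the other pre-treatment controls.

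Among the other intermediate filament genes, VIM (vimentin), the partner of nestin, rose in both experiments. VIM had 9.85, 5.76 and 6.20 CPM in the co-treatment controls and 15.5, 15.3 and 17.8 CPM with H2O2, without overlap (log2FC 1.16, standard error 0.21, FDR 0.0272). In the pre-treatment experiment, it had 3.07 and 4.05 CPM in control replicates 1 and 2, a little more in control replicate 3, and 22.8, 19.4 and 21.7 CPM in the treated cultures, so control replicate 3 lay with its own group here. Of all genes tested, 6.58% after co-treatment and 7.97% over the 6 pre-treatment libraries were likewise higher in every treated library. The log2FC of VIM was 2.42 (standard error 0.24, FDR 0.0443) over 6 libraries and 2.66 (standard error 0.20, FDR 7.18e-04) over 5. The co-treatment call was lost when any 1 library other than control replicate 1 was left out (FDR 0.0664 to 0.205), and the call over the 6 pre-treatment libraries when any 1 other than control replicate 3 was left out (FDR 0.178 to 0.408), while the log2FC stayed between 1.01 and 1.19 and between 2.25 and 2.50 in these fits. The co-treatment call was also lost with library size as the only scaling (FDR 0.0624) and with 1 fit over both experiments (FDR 0.163), and the call over 6 pre-treatment libraries with limma-voom (FDR 0.0797) and upper-quartile factors (FDR 0.0521). The difference between the experiments was 1.24 (standard error 0.31, FDR 0.381) over 12 libraries and 1.44 (FDR 0.0157) without pre-treatment control replicate 3. Part of VIM is overlapped by the antisense gene VIM-AS1, which was counted too.

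Of the 14 other filament genes, 12 were tested after co-treatment, of which 2 rose, against 0.335% of all genes, and none fell. After pre-treatment, 13 were tested, of which 1 rose over 6 libraries and 2 over 5, against 0.0242% and 13.2% of all genes. SYNM, the linker filament protein synemin, rose after co-treatment from 19.8 ± 3.37 to 34.8 ± 3.74 CPM (SD, n = 3; log2FC 0.82, standard error 0.15, FDR 0.0325). That call was lost when any 1 library other than control replicate 1 was left out (FDR 0.0751 to 0.309), with library size as the only scaling (FDR 0.0710) and with 1 fit over both experiments (FDR 0.311). Over the pre-treatment libraries, its log2FC was 0.17 (FDR 0.786) with all 6 and 0.03 (FDR 0.909) with 5. KRT18, a keratin of simple epithelia, had 0.560 ± 0.234 CPM (SD, n = 2) in pre-treatment control replicates 1 and 2, 1.65 CPM in control replicate 3 and 7.30 ± 2.74 CPM (SD, n = 3) in treated cells. It rose over 5 libraries (log2FC 3.76, standard error 0.45, FDR 0.00159), and over 6 libraries its log2FC was 2.98 (FDR 0.266). The lamins LMNA, LMNB1 and LMNB2, which line the nucleus, were not called in any of the 3 comparisons. The median log2FC of the other filament genes tested was 0.39 after co-treatment and 0.17 over 6 pre-treatment libraries, against -0.00 and -0.01 over all genes, while that of the 6 neural filament genes was -0.19 and -0.26. Over 5 pre-treatment libraries, these medians were 0.03 for the other filament genes, 0.01 for all genes and -0.15 for the 6 genes.

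**Figure D5:**
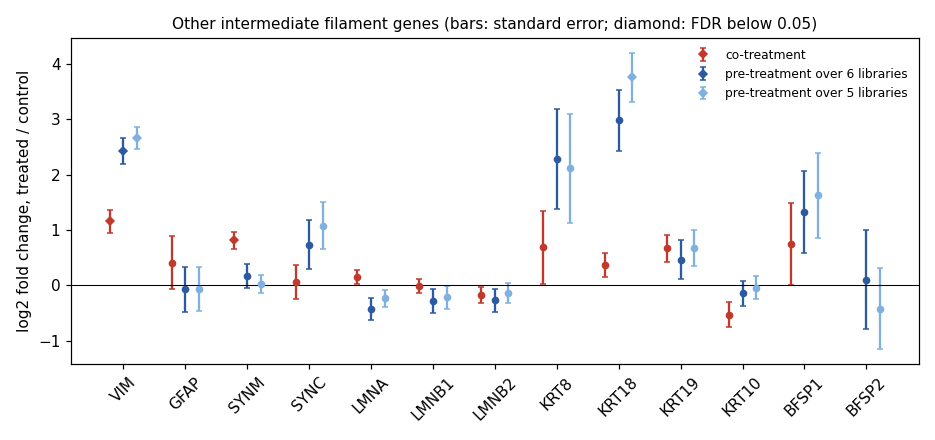
The log2FC of treated against control cells is plotted for the other intermediate filament genes in the 3 comparisons, with bars of 1 standard error and a diamond for an FDR below 0.05. VIM is called in all 3 (1.16, 2.42 and 2.66), SYNM after co-treatment (0.82) and KRT18 over the 5 pre-treatment libraries (3.76).

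Of 17 genes for proteins that link filaments to other structures or carry them along the axon, none was called after co-treatment or over the 6 pre-treatment libraries, and 5 fell over the 5 libraries, against 12.8% of all genes. PLEC, the cross-linker plectin, had 334 CPM in control replicates 1 and 2 on average and 96.1 CPM in treated cells (log2FC -1.72, FDR 0.00103). DYNC1H1, the heavy chain of the dynein motor, had a log2FC of -1.02 (FDR 0.00147), KIF1A, an axonal kinesin, -1.33 (FDR 0.00159), and MYO5A, a myosin that binds NEFL, -0.80 (FDR 0.00483). MACF1, a linker of actin and microtubules that was named after its values were seen, was the fifth (log2FC -0.60, FDR 0.0126), with a log2FC of -0.36 (FDR 0.655) over 6 libraries. The kinesin-1 heavy chains KIF5A, KIF5B and KIF5C, which carry neurofilaments outward, were not called in any comparison, with FDR values from 0.105 to 0.992. Over 6 libraries, PLEC and KIF1A had an FDR of 0.320, DYNC1H1 of 0.442 and MYO5A of 0.452, with the same signs.

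Neurofilament tails are phosphorylated by CDK5, GSK3 and MAP kinases, and of 20 genes for such kinases and for proteins that act with or against them, none was called in the comparisons of 6 libraries. Over the 5 pre-treatment libraries, 1 rose and 4 fell, where 13.2% of all genes rose and 12.8% fell. CDK5 rose (log2FC 0.70, FDR 0.00454), whereas CDK5R2, which encodes one of its activators, fell from 23.4 to 5.95 CPM (log2FC -1.90, FDR 0.00789). GSK3B fell with a log2FC of -1.08 (FDR 9.96e-04) and PRKACA, the catalytic subunit of protein kinase A, with -2.04 (FDR 9.03e-04). Of 9 genes for proteins that bind neurofilament mRNA or are tied to its stability, 3 rose and 2 fell over the 5 libraries (13.2% and 12.8% of all genes) and none was called otherwise. ELAVL3, a neuronal RNA stabiliser, fell (log2FC -1.88, FDR 0.00124), while SOD1 (log2FC 0.66, FDR 0.0100) and MATR3 (log2FC 0.61, FDR 0.0141) rose. TARDBP, whose product binds the NEFL message, was not called (log2FC 0.25, FDR 0.166 over 5 libraries). Without control replicate 2, CDK5R2 (FDR 0.0785), SOD1 (FDR 0.0883) and MATR3 (FDR 0.101) were not called, and MATR3 was not called without treated replicate 1 either (FDR 0.0527). Over 6 libraries, the FDR values of GSK3B, PRKACA, CDK5R2 and ELAVL3 lay between 0.320 and 0.357, with the same signs, while the log2FC was 0.26 for CDK5 (FDR 0.737), 0.25 for SOD1 (FDR 0.745) and 0.33 for MATR3 (FDR 0.638).

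Markers of cell identity moved unevenly beside these genes, and in bulk RNA fewer cells of a type cannot be told apart from less RNA per cell. The 12 neuronal markers had none called in the comparisons of 6 libraries, and over the 5 pre-treatment libraries 4 rose and 2 fell, against 13.2% and 12.8% of all genes. STMN2, a microtubule regulator of growth cones, rose (log2FC 0.83, FDR 0.00612), as did UCHL1 (log2FC 0.85, FDR 0.00702), and DCX (log2FC -0.73, FDR 0.0118) and MAPT (log2FC -0.94, FDR 0.0142), which encode microtubule-binding proteins of young neurons and axons, fell. The calls of UCHL1 (FDR 0.0641), DCX (FDR 0.0994) and MAPT (FDR 0.135) were lost without control replicate 2, and that of MAPT without treated replicate 1 (FDR 0.0532). Over 6 libraries, the log2FC was 0.44 for STMN2 (FDR 0.599), 0.31 for UCHL1 (FDR 0.745), -0.46 for DCX (FDR 0.614) and -0.75 for MAPT (FDR 0.377). The summed CPM of the neuronal list was 3624 to 5109 in the pre-treatment controls and 4268 to 4604 in the treated cultures.

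The noradrenergic neuroblast markers, of which 10 of 11 were tested, had a lower summed level in treated than in control cultures of both experiments, without overlap. The sum was 3423 to 4244 CPM in the co-treatment controls and 2483 to 3256 CPM with H2O2, and 2774 to 4324 CPM and 1952 to 2647 CPM in the pre-treatment controls and treated cultures. None was called over 6 libraries. Over 5 libraries, where 13.2% of all genes rose and 12.8% fell, 1 rose and 4 fell, the latter being GATA2 (log2FC -0.92, FDR 0.00400), GATA3 (log2FC -1.44, FDR 0.0126) and PHOX2A (log2FC -0.73, FDR 0.0230), which encode transcription factors of the lineage, and DBH, its noradrenaline-forming enzyme (log2FC -1.72, FDR 0.0259). Of these 4, GATA2 alone was called without control replicate 2, where the others had FDR values of 0.0891 to 0.273, while PHOX2A (FDR 0.0545) and DBH (FDR 0.0639) were not called without treated replicate 1 and DBH not without treated replicate 2 (FDR 0.0708). Over 6 libraries, the log2FC was -0.85 for GATA2 (FDR 0.320), -1.07 for GATA3 (FDR 0.471), -0.78 for PHOX2A (FDR 0.320) and -1.48 for DBH (FDR 0.338). TH, the first enzyme of that pathway, did not exceed 0.263 CPM in any library. The part of this list in the NEFM, INA and NES values was not tested.

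Beside NES, the neural progenitor list had 8 of 12 genes tested. MSI1 (log2FC -1.48, FDR 0.00976) and MSI2 (log2FC -0.61, FDR 0.0119), which encode RNA-binding proteins of stem cells, fell over the 5 pre-treatment libraries (12.8% of all genes). The call of MSI1 was lost without control replicate 2 (FDR 0.0980), and that of MSI2 without any 1 library other than treated replicate 3 (FDR 0.0541 to 0.0657). Over 6 libraries, MSI1 had a log2FC of -1.20 (FDR 0.338) and MSI2 of -0.46 (FDR 0.472).

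The mesenchymal list, which holds VIM, had 1 gene called after co-treatment, 2 over the 6 and 4 over the 5 pre-treatment libraries, all of which rose, against 0.335%, 0.0242% and 13.2% of all genes. After co-treatment and over the 6 pre-treatment libraries, 4 of its 10 tested genes had a log2FC below 0. Its summed level overlapped between controls and treated cultures in both experiments, at 301 to 459 and 358 to 382 CPM in the co-treatment experiment and 359 to 480 and 449.7 to 477 CPM in the pre-treatment experiment. COL3A1, a fibrillar collagen, had 17.7 CPM in the pre-treatment controls on average and 94.2 CPM in treated cells (log2FC 2.44, FDR 0.0443, over 6 libraries). YAP1 (log2FC 3.11, FDR 0.0251) and CD44 (log2FC 1.11, FDR 0.0331) rose over 5, both at low levels. YAP1 had only 0.0544 to 0.0876 CPM in the pre-treatment controls and 0.206 to 0.963 CPM in treated cells. CD44 had 1.20 CPM in control replicates 1 and 2 on average and 2.48 CPM in treated cells. COL3A1 was not called over 6 libraries when any 1 other than control replicate 3 was left out (FDR 0.177 to 0.408), nor with limma-voom (FDR 0.0797), upper-quartile factors (FDR 0.0521) or library size as the only scaling (FDR 0.117), and over 5 libraries its log2FC was 2.48 (FDR 9.85e-04). Over 6 libraries, YAP1 had a log2FC of 3.12 (FDR 0.320) and CD44 of 1.25 (FDR 0.320). Over 5 libraries, YAP1 was not called without control replicate 1, control replicate 2 or treated replicate 1 (FDR 0.0768 to 0.124), and CD44 not without control replicate 2, treated replicate 1 or treated replicate 2 (FDR 0.0870 to 0.198). The Schwann and glial markers had none called and summed to 6.40 to 9.27 CPM, with S100B at 1.29 to 3.68 CPM and GFAP, the astrocyte filament, at no more than 1.21 CPM. Of the immune markers, CD14 fell over the 5 libraries, from 1.34 to 0.573 CPM on average (log2FC -1.15, FDR 0.0300), a call lost without any 1 library other than treated replicate 3 (FDR 0.0634 to 0.182). Over 6 libraries, its log2FC was -0.85 (FDR 0.520). The share of all genes that fell over the 5 libraries was 12.8%.

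The 6 genes did not vary as a unit from library to library. With the mean of each experiment subtracted, Pearson's r of log2 CPM over the 12 libraries, which share depth and scaling and include the treated cultures, ran from -0.20 (NEFL with INA) to 0.76 (NEFL with PRPH). The neighbours NEFL and NEFM had an r of 0.14, NEFM and NEFH 0.52, NEFH and NES 0.73, and INA and NES 0.65. Among 11931 genes with a mean of at least 5 CPM, those most like NEFL were NDRG2 (r = 0.97), TM7SF2 (0.97) and LBH (0.95), and those most like NEFM were ACTR2 (r = 0.98), IFNAR1 (0.94) and RAP1A (0.93). NEFH was most like UBTF (r = 0.93), DHX38 (0.91) and YWHAB (0.90), and INA most like EFNB3 (r = 0.97), WFS1 (0.96) and SPATA2 (0.96). NES was most like the actin gene ACTB (r = 0.96), UBE2Z (0.95) and ZDHHC5 (0.95), and PRPH, with its low counts, most like C2orf68 (r = 0.89), PEX6 (0.89) and RNF112 (0.88).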

How the data were processed

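Total RNA of the 12 cultures was depleted of ribosomal RNA and sequenced from stranded libraries. According to the submitters' processing notes and the methods, quality was checked with FastQC 0.11.8, adapters were removed by cutadapt 2.10, HISAT2 2.1.0 aligned the reads to hg19, and htseq-count (HTSeq 0.7.2) assigned them to gene symbols. The authors deposited the unnormalized counts of each library. The 5 uncounted entries of each file (40.0% to 59.9% of each file's total) were left out. The authors' tables of fold changes and p-values were not used.

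R 4.3.3 and edgeR 4.0.16 were used. A gene was tested if enough libraries to fill the smaller group reached a CPM equal to 5 counts in the shallowest one. TMM factors and the quasi-likelihood test were applied, with p-values adjusted over all genes. Calls are an FDR below 0.05, as in the methods. CPM uses all 12 libraries. On simulated counts, changes of 1 on the log2 scale were called for 88% (co-treatment, 22089 genes), 11% (6 pre-treatment libraries, 24743 genes) and 63% (5 libraries, 26350 genes) of altered genes. The altered genes were drawn only from genes with higher counts than PRPH, so these shares do not apply to PRPH. No simulated library was made to stand apart from its group.

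Named genes are all 6 filament genes and, from each other list, up to 4 genes called in a comparison by smallest FDR (where none was called, the 2 most abundant). For likeness, the 3 genes of highest r were taken. The filament genes and lists were chosen with earlier results of these data known. Positions come from a GENCODE annotation lifted to GRCh37. Alternatives were other tests (exact test, DESeq2 1.42.0, limma-voom with limma 3.58.1), scalings, filters, 1 fit over both experiments, a replicate block, small structured RNA loci removed, a log2FC threshold and each library left out. Some listed genes are counted but not reported by name here.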

Additional observations from a re-analysis of the deposited data

How the results depend on the processing

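Of 744 alternative values of the 6 genes, 689 kept their direction and their side of the FDR threshold, 21 passed it, 4 no longer did and 30 changed sign. After co-treatment, the count of genes called went from 0 to 1 (NEFM) with the exact test, DESeq2, no filter and the replicate block. Those settings called 1.53%, 1.56%, 1.44% and 0.819% of all genes, against 0.598% as reported. The count was 0 to 1 with single libraries left out, the 1 being NEFM without control replicate 2 (0.213% of all genes). Over the 6 pre-treatment libraries it was 0 to 1 with single libraries left out, the 1 being INA without control replicate 3 (26.1% of all genes). Over the 5 libraries, the count was 1, where 26.1% of all genes were called. With the exact test (30.3% of all genes) and DESeq2 (30.0%) it was 2 (INA and NEFM). With upper-quartile factors or library size alone (23.8% each) it was 3 (with NES), and with no filter (20.2%) also 3 (with NEFL). With the replicate block (40.8%) it was 4 (INA, NEFL, NEFM and NES). It was 0 with 1 fit over both experiments (24.6%) or with a log2FC threshold of 1 (11.2%). With single treated libraries left out (12.5% to 33.1%) it was 0 to 2. The count was 1 instead of 0 for the common effect without a filter (NEFM, with 1.1% of all genes called). Between control cultures it was 0 to 1 with single libraries left out, the 1 being NEFL without pre-treatment control replicate 3 (25.1% of all genes). Same-numbered libraries deviated from their group means with correlations of -0.0786 to -0.0435 (co-treatment) and -0.273 to 0.0264 (pre-treatment), so the replicate numbers were not taken to pair the cultures. The replicate block lost the calls of VIM (FDR 0.491) and COL3A1 (FDR 0.344) over 6 pre-treatment libraries, and could not be fitted between control cultures, which come from different experiments.

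The log2FC values that changed sign were as follows. INA after co-treatment was 0.00683 with the replicate block and -0.272 to 0.172 with single libraries left out, and NES after co-treatment was -0.113 to 0.117. NEFH was -0.101 to 0.0827 over 5 pre-treatment libraries with another library left out. Its difference between experiments was -0.00106 with DESeq2, -0.00120 with RLE factors, -0.0732 with library size alone, -0.0244 without small structured RNA loci and -0.124 to 0.229 with single libraries left out. In the common effect, NEFL was 0.00907 with upper-quartile factors, 4.45e-04 with library size alone and -0.102 to 0.0433 with single libraries left out, and PRPH was -0.285 to 0.115 in such fits. INA between control cultures was -0.0458 to 0.365 in them. With coding length, the median NEFH to NEFL ratio was 0.0559 instead of 0.109. The median log2FC of all genes over 5 pre-treatment libraries moved from 0.01 to -0.10 with upper-quartile factors and to -0.21 with library size alone. The 34 calls of the common effect, 23 higher and 11 lower, became 19 and 2 with library size alone.

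Counts of all genes called ran from 3 to 535 after co-treatment (132 as reported), 0 to 6872 over 6 pre-treatment libraries (6), 1665 to 10745 over 5 (6872), 0 to 2058 for the difference (7), 5 to 477 for the common effect (34) and 0 to 6455 between control cultures (1). PRPH had the fewest reads of the 6 genes, with 14 in the library where it was read least.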
